A study of Mus musculus with 13 samples.

Results

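The mitochondrial ribosomal protein genes were followed in mouse ES cells that were induced, or not induced, to express CTCF S224E, a form of the chromatin protein CTCF in which a glutamic acid stands in for phosphorylated serine. The genes were taken by name: every row of the deposited counts whose symbol is Mrpl or Mrps followed by a number and, in some cases, a letter a to c. This rule found 77 of 24421 genes, the same 77 in each of the 2 count tables. All 77 had counts in every library, and all 77 were tested. By textbook assignment 50 of them encode proteins of the large subunit and 26 proteins of the small subunit. Mrps36 carries the family's name but encodes a part of the 2-oxoglutarate dehydrogenase complex. It was kept because the rule takes it.

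The cells were F1-2.1 ES cells (CAST/Ei x 129/Sv/Jae), grown in LIF over irradiated fibroblast feeders. All libraries came from clone A2, which carries an integrated Tet-on CTCF S224E transgene and still has its endogenous CTCF. The S224E_plus_dox group received doxycycline (dox) at 1 μg/mL for 6 days and the S224E_minus_dox group received none. Each group had 2 polyA RNA libraries, described as biological replicates of this single clone and called +dox and −dox here. RNA libraries from cells that received dox without the transgene were not analysed here, so an effect of dox and an effect of S224E cannot be told apart.

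Mitochondria keep their own ribosome, the mitoribosome. It translates the few mRNAs of the mitochondrial genome, which encode core membrane proteins of the respiratory chain and the ATP synthase. Its rRNAs are mitochondrial transcripts, whereas every one of its proteins is encoded in the nucleus, made in the cytosol and imported. Tetracyclines such as dox bind the small subunit of bacterial ribosomes and can also inhibit translation in mitochondria. The comparison of these genes with and without dox therefore bears on how the supply side of that machinery stood in the cells, as mRNA. The tables hold 0 genes of the mitochondrial chromosome, and neither mitochondrial rRNA nor mitochondrial protein synthesis was measured.

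Counted reads per library ranged from 22899107 to 30206085, and a member had between 36 and 5510 reads in a library. Ctcf, with transgene and endogenous reads together, stood at 327 and 329 CPM (the usual library-scaled read counts, here with TMM factors) in +dox against 295 and 304 in −dox. Its log2 fold change was 0.13 (SE 0.09, edgeR adjusted p = 0.475). All 10 of the ES cell markers listed were detected, with a summed level of 6840 and 7569 CPM in +dox and 6049 and 6419 CPM in −dox. Fibroblast markers stood apart in +dox replicate 1. The 20 listed genes summed to 3739 CPM there, against 1978 CPM in +dox replicate 2 and 1776 and 2027 CPM in −dox, and none was at 0 in every library. In bulk RNA, fewer cells of a type and less RNA per cell cannot be told apart.

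The mitochondrial ribosomal protein genes as a group were slightly higher in +dox than in −dox, by 1.14-fold in their summed level, and no single gene passed the test. They took 0.546% and 0.585% of all counted reads in +dox replicates 1 and 2, and 0.522% and 0.501% in −dox replicates 1 and 2. Both +dox libraries lay above both −dox libraries. On the CPM scale the sums were 5550 and 5928 in +dox (mean 5739 ± 267, SD, n = 2) and 5161 and 4912 in −dox (mean 5037 ± 176, SD, n = 2). Within replicate 1 the ratio of +dox to −dox was 1.07 and within replicate 2 it was 1.21. No test was made of this sum, and with 2 libraries against 2 an exact two-sided permutation test cannot reach 0.05.

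The ratio was the same in both subunits. The 50 large subunit genes summed to 3876 and 4146 CPM in +dox and to 3602 and 3443 CPM in −dox, a ratio of 1.14. The 26 small subunit genes summed to 1667 and 1775 CPM in +dox and to 1553 and 1463 CPM in −dox, also a ratio of 1.14. In the plot of summed levels the +dox points lie above the −dox points in each subunit, and the distance is short beside the height of the bars.

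**Figure D1:**
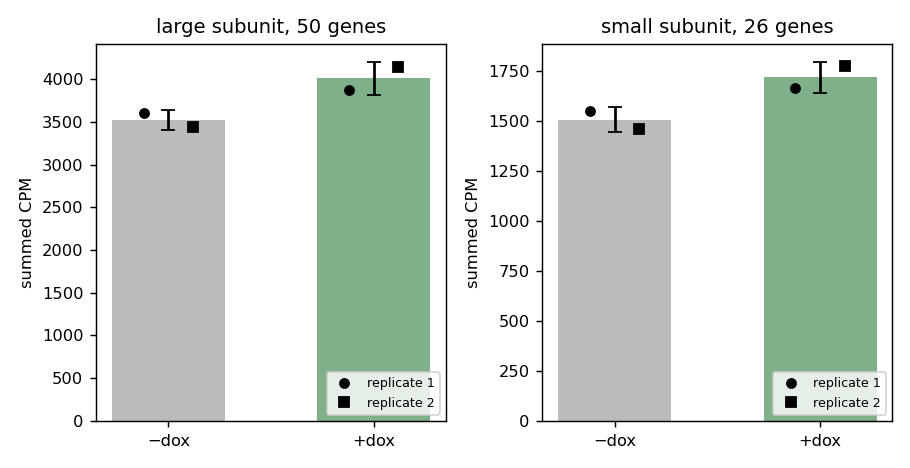
Summed CPM of the large subunit genes (left) and the small subunit genes (right) in −dox and +dox libraries; bars are means of 2 libraries with SD, circles are replicate 1 and squares replicate 2. In each subunit both +dox libraries exceed both −dox libraries, with a ratio of means of 1.14.

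Across single genes the differences were small and nearly all in the same direction. The log2 fold change of +dox over −dox was above 0 for 73 of the 77 members (94.8%), against 50.8% of the 20044 genes tested. This count was 68 when libraries were scaled by their total counts in place of TMM. The median was 0.18, with the middle of the distribution between 0.10 and 0.23, and the median of all genes tested was 0.01. Values ran from −0.11 for Mrpl14 to 0.51 for Mrpl21. Since fold changes of weakly expressed genes scatter widely, the 72 members averaging 10 CPM or more were also set beside the 9970 genes at that level. Of these members 68 (94.4%) had a log2 fold change above 0, against 52.2% of the genes at that level.

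No member passed the edgeR quasi-likelihood test at an adjusted p of 0.01, where 120 of all genes did (0.599%). At so low a background a count of 0 among 77 is not a result about these genes. The lowest adjusted p-values from edgeR were 0.0543 for Mrps18b and 0.0753 for Mrpl21. DESeq2 called 0 members at 0.01 (background 1.87%) and 2 at 0.05, Mrps18b and Mrpl21 (background 3.88%). Before adjustment 17 members had p under 0.05 by edgeR and 15 by DESeq2. All 17 were higher in +dox, which is 22.1% of the members against 8.48% of all genes, and 23.6% of the 72 members above 10 CPM against 11.6% of genes at that level. The count rests on the libraries used: it was 24 without +dox replicate 1, 4 without +dox replicate 2, 11 without −dox replicate 1, 2 without −dox replicate 2 and 9 with total counts, all of them higher.

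The intervals bound the size of what could have been missed. The 95% intervals of the log2 fold change, each for its own gene and not adjusted for the number of genes, had an upper end under 1 for all 77 members, the highest being 0.88 for Mrps33. The upper end was under 0.5 for 62 members. A doubling thus lay outside the interval of every member. Standard errors ranged from 0.09 to 0.33, with a median of 0.11, which is a large share of a typical difference of 0.18.

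**Figure D2:**
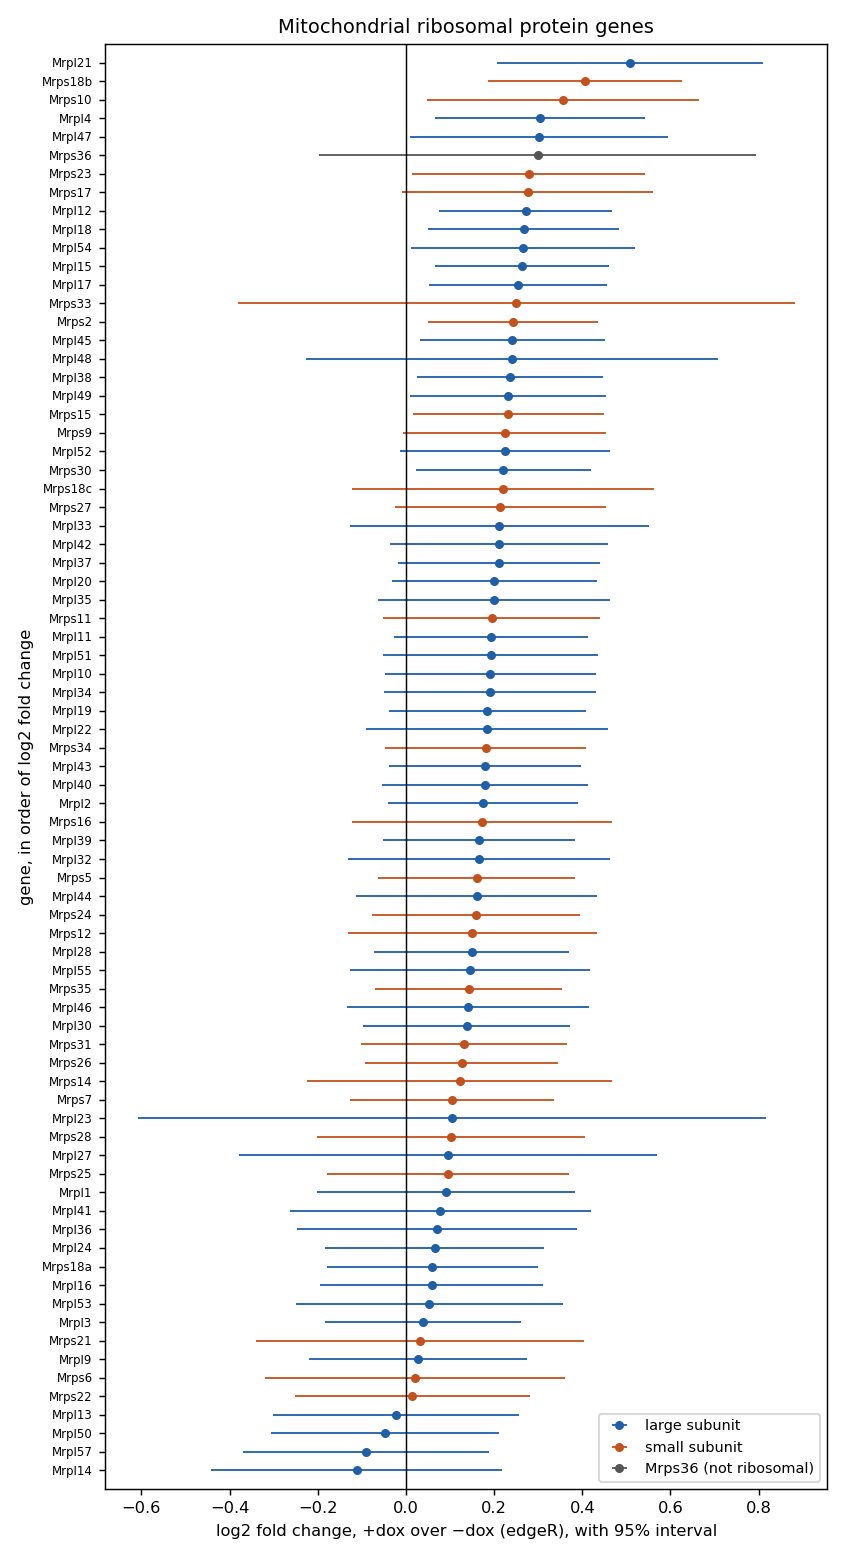
Log2 fold change of +dox over −dox for each of the 77 genes with its 95% interval from edgeR, ordered by value; colours give the subunit. Estimates lie above 0 for 73 genes, and the interval lies wholly above 0 for 17.

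The libraries agreed in direction more than in size. Both +dox libraries lay above both −dox libraries for 50 of 77 members and below them only for Mrpl14. Among members of at least 10 CPM, 49 of 72 (68.1%) were higher without overlap, against 28.5% of all genes at that level, and 1 (1.39%) was lower without overlap, against 26.0%. Within replicate 1 the median log2 ratio was 0.09 and within replicate 2 it was 0.26, and the ratio was larger in replicate 2 for 69 of 77 members. A ratio above 0 in each table was found for 54 of the 72 members (75.0%), against 36.6% of genes at that level.

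Markers of other cells moved with this split between replicates. The fibroblast markers had a median log2 ratio of 1.44 in replicate 1, where the members differed less, and 0.30 in replicate 2, where they differed more. Of the 20 fibroblast markers 14 were above 0 in both tables. Without +dox replicate 1, the library high in fibroblast markers, the members' median was 0.23 with 74 of 77 above 0. Without +dox replicate 2 it was 0.13 with 64 of 77 above 0. Of the ES cell markers 9 of 10 were higher in +dox, with a median log2 fold change of 0.23, among them Zfp42 at 0.35 and Sall4 at 0.31 (edgeR adjusted p = 0.111 and 0.0935). Their median log2 ratio was similar in the tables, 0.23 in replicate 1 and 0.26 in replicate 2. In an edgeR fit with the replicate number as a block, Zfp42 and Sall4 passed the threshold (adjusted p = 0.00296 and 0.00567). That fit called 4 of the 10 ES cell markers and 12 of the 20 fibroblast markers. Over all 20044 genes it called 316 higher and 470 lower. The edgeR fit without the block, and DESeq2, each called 0 genes of both marker lists at 0.01. The labels do not say that a replicate number marks a shared culture. What part the makeup of the cultures has in the members' values was not tested.

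**Figure D3:**
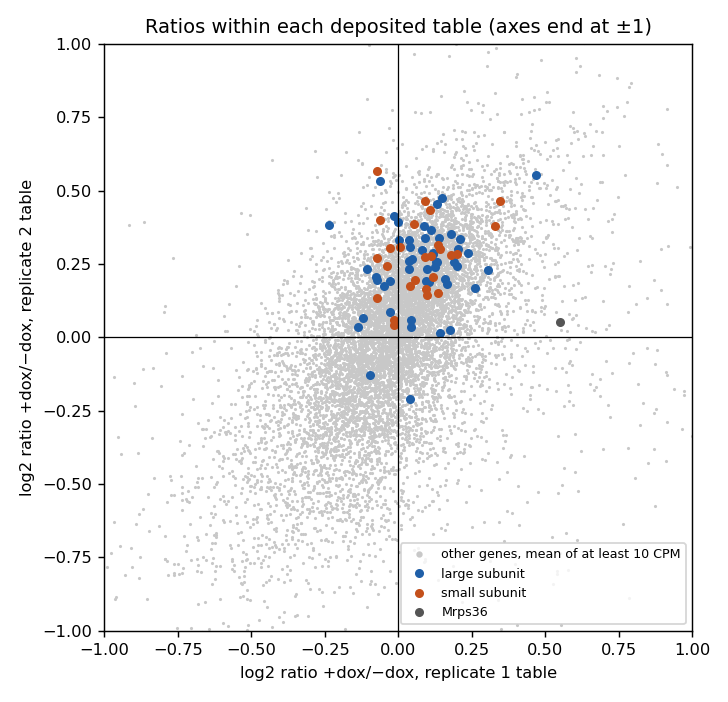
Log2 ratio of +dox to −dox in the replicate 1 table (horizontal) and the replicate 2 table (vertical), with a prior count of 2; grey points are other genes averaging 10 CPM or more and coloured points are the 77 members. Most members lie above 0 on both axes, and 69 have the larger ratio in replicate 2.

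Transcript length moved with the fold change across all genes, and these genes are short. The median counted exon length was 1044 nt for the members and 2486 nt for all genes. When genes of at least 10 CPM were put in 4 bins of equal size by length, the median log2 fold change went from 0.11 in genes of up to 1913 nt to 0.04, −0.02 and −0.11 in the longer bins. The shortest bin held 59 of the 72 members. Their median there was 0.18 against 0.11 for the bin, 57 of 59 (96.6%) were above 0 against 72.4% of the bin, and 42 of 59 (71.2%) were higher without overlap against 44.8%. When each fold change was centred on genes of like length, the members' median went from 0.18 to 0.08. The part of length in the result was not tested further.

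**Figure D4:**
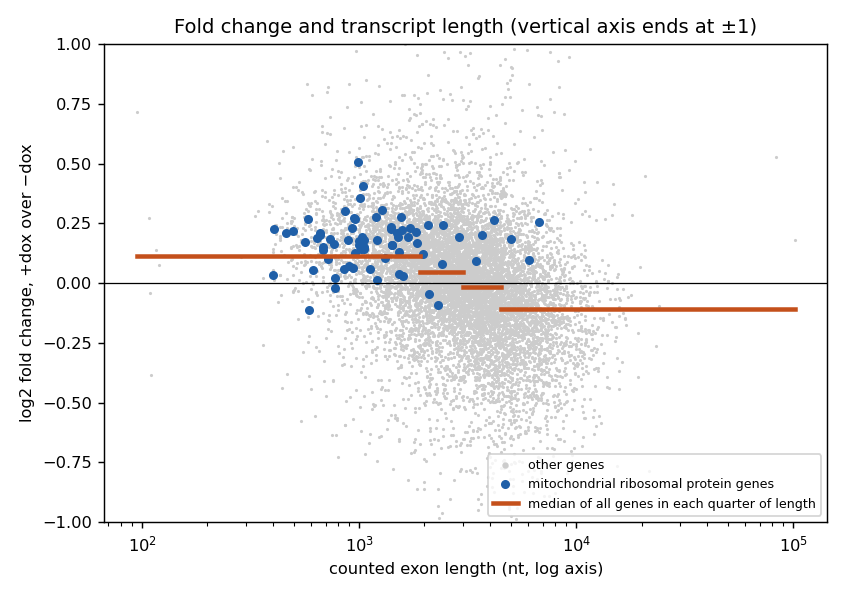
Log2 fold change of +dox over −dox against counted exon length (log axis) for genes averaging 10 CPM or more; blue points are members, grey points other genes, and red lines the median of all genes in each of 4 length bins. The medians step down from 0.11 to −0.11 as length grows, and most members lie in the shortest bin.

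The largest differences were in Mrpl21 and Mrps18b. Mrpl21, a large subunit protein with a bacterial counterpart, stood at 47.5 and 42.2 CPM in +dox against 34.3 and 28.7 CPM in −dox. The groups did not overlap, and the log2 fold change was 0.51 (SE 0.14), or 1.42-fold. Without +dox replicate 2 it was 0.59 and passed the threshold, with an edgeR adjusted p of 0.00682, the only call of a member at 0.01 in any setting run. Mrpl21 (mm9 chr19:3283047-3292837, plus strand) starts 37 nt from Ighmbp2 on the other strand, which runs away from it in the counted transcripts. In the GENCODE M1 annotation, which is not the one counted, the genes share 117 exon bases. Whether reads were counted by strand is not stated.

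Mrps18b encodes a small subunit protein, one of 3 mammalian relatives of the bacterial S18 protein. Its level was 94.9 and 97.1 CPM in +dox against 74.6 and 70.3 CPM in −dox, again without overlap, and the log2 fold change was 0.41 (SE 0.10). Of its transcript, 61.3% of the 32-base windows also occur elsewhere in the genome, where only unique reads were counted. In GENCODE M1, 30.5% of its exon bases overlap Gm16279 on the opposite strand. Its relatives differed less. Mrps18c, the closest to the bacterial protein in position in the small subunit, stood at 20.1 and 20.6 CPM against 18.2 and 16.7 CPM (log2 fold change 0.22, SE 0.16). Mrps18a, which despite its name sits in the large subunit, stood at 72.1 and 74.0 CPM in +dox and 74.6 and 65.5 CPM in −dox, with overlap and a log2 fold change of 0.06 (SE 0.11).

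The next in size were Mrps10, Mrpl4 and Mrpl47. Mrps10, a protein of the small subunit's head, was at 29.0 and 31.9 CPM in +dox and 23.02 and 24.5 CPM in −dox (log2 fold change 0.36, SE 0.14), and 50.7% of its transcript's windows are repeated elsewhere. Mrpl4, a large subunit protein with a bacterial counterpart, was at 124 and 129 CPM in +dox and 112 and 93.1 CPM in −dox (0.30, SE 0.11). Mrpl47, the counterpart of bacterial L29, was at 43.4 and 53.9 CPM in +dox and 39.6 and 39.3 CPM in −dox (0.30, SE 0.13). In none of the 3 did the groups overlap, and their edgeR adjusted p-values were 0.203, 0.159 and 0.263.

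Only 4 members had a log2 fold change below 0, and all 4 belong to the large subunit. Mrpl14, which lies at the interface between the subunits, was at 19.8 and 19.6 CPM in +dox and 21.1 and 21.4 CPM in −dox, the single member with +dox below −dox in every library (−0.11, SE 0.15). Mrpl57, a mitochondria-specific protein, was at 45.4 and 46.0 CPM against 44.2 and 53.2 CPM (−0.09, SE 0.13). Mrpl50 was at 49.3 and 56.5 CPM against 54.2 and 55.1 CPM (−0.05, SE 0.12), and Mrpl13 at 41.7 and 49.5 CPM against 45.3 and 47.3 CPM (−0.02, SE 0.13). In the last 3 the groups overlapped, and each of them had a log2 fold change above 0 when a single library was left out.

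Of the genes chosen for a place at the decoding region or the mRNA path, 3 are given here and none passed the test. Mrps12, whose bacterial counterpart helps to check codon pairing, was at 55.6 and 71.3 CPM in +dox and 56.7 and 57.8 CPM in −dox (log2 fold change 0.15, SE 0.13). The groups overlapped, and without +dox replicate 2 the value was −0.041. Mrps7 was at 90.4 and 87.5 CPM against 87.9 and 77.5 CPM (0.10, SE 0.11), and Mrps5 at 82.3 and 82.9 CPM against 75.9 and 71.9 CPM (0.16, SE 0.10).

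The stalk of the large subunit recruits translation factors. Mrpl12, the stalk protein itself and the member with the highest level per length, was at 201 and 209 CPM in +dox and 174 and 165 CPM in −dox (log2 fold change 0.27, SE 0.09, edgeR adjusted p = 0.129). Mrpl10, which anchors Mrpl12, was at 140 and 151 CPM against 139.6 and 115 CPM (0.19, SE 0.11), so that the difference lay almost wholly in replicate 2. Mrpl11, at the stalk's base, was at 93.9 and 95.03 CPM against 85.7 and 79.5 CPM (0.19, SE 0.10).

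Of the genes chosen for a place near the peptidyl transferase centre, where peptide bonds form, 3 are given here and none passed the test. Mrpl3 was at 76.1 and 76.9 CPM in +dox and 73.9 and 75.04 CPM in −dox (log2 fold change 0.04, SE 0.10), a sign that turned with total counts (−0.0051). Mrpl16 was at 58.9 and 62.3 CPM against 61.9 and 54.4 CPM (0.06, SE 0.12). Mrpl27 was at 8.08 and 11.5 CPM against 9.53 and 8.81 CPM (0.10, SE 0.22), with opposite signs in the replicates, and 64.4% of its windows are repeated elsewhere. Mrpl27 was −0.18 without +dox replicate 2.

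Of the genes chosen because their human counterparts cause mitochondrial disease when mutated, none passed the test. Mrpl44 was at 54.7 and 56.8 CPM in +dox and 54.6 and 45.1 CPM in −dox (log2 fold change 0.16, SE 0.13). Mrps16 was at 43.0 and 51.8 CPM against 44.9 and 39.2 CPM (0.17, SE 0.14), with overlap. Mrps22 was at 40.1 and 42.7 CPM against 40.5 and 41.5 CPM (0.01, SE 0.12), and its sign turned with total counts (−0.029). Mrps36, the gene that is not ribosomal, was at 7.42 and 6.70 CPM against 5.04 and 6.46 CPM (0.30, SE 0.23), with 89.4% of its windows repeated elsewhere. Without it the members' median was still 0.18.

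Levels per length spanned a wide range although the proteins are built into the same particle. As CPM per kb of counted exon length, averaged over the 4 libraries, the median was 52.7, with 52.9 for the large subunit and 53.1 for the small subunit. The highest were Mrpl12 at 199, Mrpl52 at 165 and Mrpl42 at 147. The lowest were Mrps33 at 2.46, Mrpl23 at 2.74 and Mrpl41 at 8.24. Repeated windows occurred at both ends: they made up 51.5% of Mrps33, 77.0% of Mrpl23 and 37.6% of Mrpl41, but also 37.3% of Mrpl42. Only unique reads were counted, so these levels are uncertain. The sequenced reads were pairs longer than the windows, so a repeated window need not mean a lost read. What part repeats have in the levels was not tested. None of Mrpl52's windows was repeated.

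None of these genes at the ends of the range passed the test, although the groups of Mrpl12, Mrpl52 and Mrpl42 did not overlap. Mrpl52 was at 68.6 and 75.1 CPM in +dox and 60.2 and 62.8 CPM in −dox (log2 fold change 0.22, SE 0.11). Mrpl42 was at 98.0 and 109 CPM against 81.9 and 97.2 CPM (0.21, SE 0.11). Mrpl41, a mitochondria-specific protein, was at 20.2 and 20.7 CPM against 18.3 and 20.5 CPM (0.08, SE 0.16). The lowest, Mrps33 and Mrpl23, rested on 52 to 80 and 36 to 43 reads a library, with log2 fold changes of 0.25 (SE 0.29) and 0.10 (SE 0.33).

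Subsets of the members had similar medians. The median log2 fold change was 0.18 for the large subunit (46 of 50 above 0) and 0.17 for the small subunit (26 of 26). It was 0.17 for the 46 members with a bacterial counterpart and 0.18 for the 30 mitochondria-specific members. In GENCODE M1 the exons of 26 members overlap those of another gene, and the median of these members was 0.18. The 33 members with no such overlap and at most 10% of windows repeated had a median of 0.17 and 31 of 33 above 0.

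Some promoter features, which the choice by name did not use, were more frequent among the members than over all genes. In windows from 250 nt before to 50 nt after the start of transcription, the median number of CpG dinucleotides was 21, against 12 over 24349 genes. These genes include ones without a count in any library, whereas every member was detected. No share over genes of like level was taken, so a part of level in these contrasts was not tested. The ETS motif CCGGAAG, the kind of site that GABP binds, was found on either strand in 34 of 77 members (44.2%), against 11.1% of all promoters. The core of the NRF1 motif, GCATGCGC, was in 9 (11.7% against 3.37%) and the YY1 motif AAGATGGCG in 9 (11.7% against 1.89%). A match to the CTCF consensus was in 0 members, against 0.546% of all promoters. With so low a share, 0 among 77 is not a result about these promoters. These are letter matches within the window and not sites shown to be bound. GABP, NRF1 and YY1 are known as activators of nuclear genes for mitochondrial proteins.

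The promoters below are shown because they cover the gene with the lowest adjusted p-value, its relative Mrps18a, promoters with 1 and with 2 motifs, a gene pair described below and the gene with the most negative value. Each run is the 120 nt before the start of transcription, 5′ to 3′ on the gene's strand, in mm9, and capitals mark ETS or NRF1 matches, which may lie on either strand. The positions are chr17:36053315-36053434 (minus strand) for Mrps18b, chr11:57985036-57985155 (plus strand) for Mrpl22, chr17:47505716-47505835 (plus strand) for Mrps10, chr7:29526801-29526920 (minus strand) for Mrps12, chr17:46247833-46247952 (plus strand) for Mrps18a and chr17:45823201-45823320 (plus strand) for Mrpl14.
Mrps18b: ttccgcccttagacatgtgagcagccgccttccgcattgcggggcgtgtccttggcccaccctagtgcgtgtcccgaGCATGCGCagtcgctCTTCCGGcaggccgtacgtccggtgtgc
Mrpl22: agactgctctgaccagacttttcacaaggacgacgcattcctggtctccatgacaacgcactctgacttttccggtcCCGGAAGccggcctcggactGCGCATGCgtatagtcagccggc
Mrps10: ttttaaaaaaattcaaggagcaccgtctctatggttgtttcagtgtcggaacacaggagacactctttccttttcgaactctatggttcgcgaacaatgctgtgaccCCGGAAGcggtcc
Mrps12: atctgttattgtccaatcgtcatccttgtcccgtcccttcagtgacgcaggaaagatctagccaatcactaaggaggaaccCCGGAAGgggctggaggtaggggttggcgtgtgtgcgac
Mrps18a: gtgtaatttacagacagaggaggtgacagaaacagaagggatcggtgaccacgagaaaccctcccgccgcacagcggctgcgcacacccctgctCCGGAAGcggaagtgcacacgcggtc
Mrpl14: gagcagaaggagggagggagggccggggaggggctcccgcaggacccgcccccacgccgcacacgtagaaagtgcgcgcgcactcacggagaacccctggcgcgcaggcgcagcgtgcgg
In Mrps18b the NRF1 core and, on the opposite strand, the ETS motif lie close together just before the start, and Mrpl22 holds both in the other order. In the runs shown, Mrps10, Mrps12 and Mrps18a hold an ETS match and no NRF1 core. Mrps10 and Mrps18a also have a YY1 match, which lies after the start and outside these runs. Mrpl14 holds no match to either in this run. The ETS match of Mrpl21 lies in the 50 nt after its start and is not shown.

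Medians were close with and without the motifs. The 34 members with an ETS match had a median log2 fold change of 0.19 and the 43 without had 0.17. The 9 with an NRF1 core had 0.18 and the other members 0.18. The 9 with a YY1 match had 0.20 and the other members 0.18. Of the genes whose promoters are shown, Mrps18b was at 0.41, Mrps10 at 0.36, Mrpl22 at 0.18, Mrps12 at 0.15, Mrps18a at 0.06 and Mrpl14 at −0.11. The genes for the factors themselves were measured as well, with log2 fold changes of 0.18 for Nrf1, −0.15 for Gabpa and −0.19 for Yy1 (SE 0.09, 0.10 and 0.09), and none passed the test (edgeR adjusted p = 0.345, 0.472 and 0.317).

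Many members start beside a gene that runs the other way. A start of transcription on the opposite strand lay within 1000 nt for 27 of 77 members (35.1%), against 9.475% of all genes. The latter share includes genes without a count, and none was taken over genes of like level. These 27 include the 4 members with a value below 0. Their median log2 fold change was 0.17, and that of the 24 neighbours outside the family that could be tested was 0.04, with 14 above 0 and 10 below. Mrpl21 at 0.51 starts 37 nt from Ighmbp2 at −0.07 (SE 0.11). Tmem63b, 154 nt from Mrpl14, was at −0.21 (SE 0.10).

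In a pair within mitochondrial translation the neighbour had the larger value. Mrps12 starts 187 nt from Sars2, the mitochondrial seryl-tRNA synthetase. Sars2 was at 86.2 and 94.9 CPM in +dox and 71.8 and 66.1 CPM in −dox (log2 fold change 0.39, SE 0.11, edgeR adjusted p = 0.0752), without overlap, while the groups of Mrps12 overlapped. Mrpl46 and Mrps11 are members that start 42 nt from each other, with log2 fold changes of 0.14 and 0.19.

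Lists of genes that make or use the mitoribosome were set beside the members. edgeR and DESeq2 each called 0 genes of these lists at 0.01, against the backgrounds of 0.599% and 1.87% given above. The share of all genes tested with a log2 fold change above 0 was 50.8%. Of 6 mitoribosomal proteins under other symbols all 6 had a log2 fold change above 0, with a median of 0.13. Only 3 of them were above 0 in both tables, and the median log2 ratio was 0.0035 in replicate 1 and 0.26 in replicate 2. The largest values were those of Aurkaip1 at 92.5 and 96.3 CPM against 80.6 and 79.3 CPM (0.24, SE 0.10) and Gadd45gip1 at 148 and 172 CPM against 137 and 136 CPM (0.23, SE 0.10). The smallest were 0.02 for Dap3 (SE 0.10) and 0.01 for Ptcd3 (SE 0.09). By edgeR 2 of the 6 had unadjusted p under 0.05 and by DESeq2 1, where 17.8% and 13.0% of all genes did. Counts this small cannot be set apart from those shares.

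Genes that assemble the mitoribosome or modify its rRNA had 24 of 29 above 0 and a median of 0.12. Their median log2 ratio was 0.03 in replicate 1 and 0.21 in replicate 2. Rnmtl1, an rRNA methyltransferase, was at 29.9 and 33.6 CPM against 26.9 and 20.7 CPM (0.41, SE 0.16). Unadjusted p was under 0.05 for 4 of the 29 by edgeR and by DESeq2, no result about the list beside the shares of 17.8% and 13.0% over all genes. Genes of mitochondrial DNA expression and RNA processing had a median of 0.15. Of these 15 genes 9 were above 0, a count that cannot be set apart from the 50.8% of all genes. Elac2, a tRNA 3′ processing enzyme, was at 0.29 (SE 0.09).

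Translation factors and tRNA charging genes had smaller medians than the lists above. Of 15 translation factors 10 were above 0 (median 0.07), with Mtif3, an initiation factor, at 0.28 (SE 0.14) and none at unadjusted p under 0.05 by either tool. Their median log2 ratio was 0.02 in replicate 1 and 0.09 in replicate 2. Of 20 tRNA charging genes 13 were above 0 (median 0.08), and their median log2 ratio was −0.02 in replicate 1 and 0.15 in replicate 2. Counts of this size cannot be set apart from the 50.8% of all genes. Iars2, the mitochondrial isoleucyl-tRNA synthetase, was at 130 and 116 CPM in +dox and 154 and 149 CPM in −dox, without overlap (−0.30, SE 0.10, edgeR adjusted p = 0.126), opposite in sign to Sars2.

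Lists tied to mitochondrial stress showed no call either. Of 16 mitochondrial chaperones and proteases 12 were above 0, with a median of 0.06, and Clpp, a matrix protease subunit, was at 0.30 (SE 0.10). Of 17 genes of the integrated stress response, which cells use to answer mitochondrial faults among other stresses, 10 were below 0 and 7 above. Their median was −0.10. Chac1 was at 4.75 and 4.07 CPM against 5.83 and 10.2 CPM (−0.86, SE 0.28) and Pck2 at 22.9 and 27.5 CPM against 33.03 and 35.99 CPM (−0.45, SE 0.15), with edgeR adjusted p-values of 0.122 and 0.119. Unadjusted p was under 0.05 for 6 of the 17 by edgeR and by DESeq2. By edgeR 5 of these were lower, where 9.31% of all genes were lower with p under 0.05. The 1 that was higher, where 8.48% of all genes were, was Ddit3. It stood at 21.0 and 23.8 CPM against 16.9 and 17.5 CPM (0.38, SE 0.16). No test of the list was made. Among 10 regulators of mitochondrial biogenesis 6 were above 0 (median 0.17), a count that cannot be set apart from the 50.8% of all genes. Myc was at 0.34 (SE 0.11, edgeR adjusted p = 0.107).

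**Figure D5:**
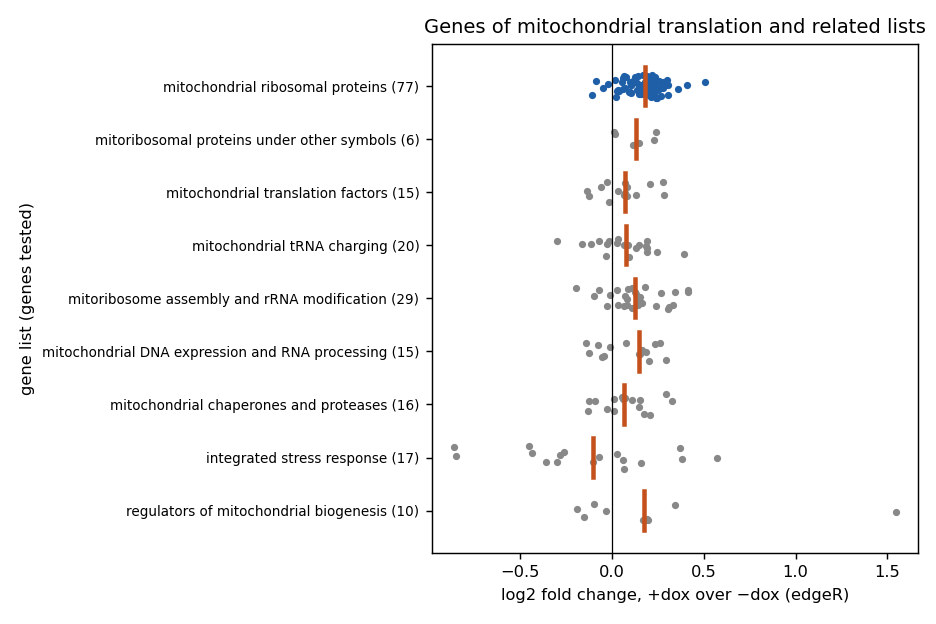
Log2 fold change of +dox over −dox from edgeR for the members (blue) and for genes of 8 related lists (grey); red bars are medians and points are spread vertically to separate them. The members cluster above 0 with a median of 0.18, and the integrated stress response list has its median at −0.10.

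A small positive median was also found in 2 other families of genes taken by symbol. The 76 cytosolic ribosomal protein genes had a median log2 fold change of 0.26 with 69 above 0. The 75 genes for nuclear-encoded subunits of the respiratory chain and the ATP synthase had a median of 0.16 with 70 above 0. The members' median of 0.18 lay between these. No test was made of the members against these families.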

How the data were processed

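RNA-seq libraries were grouped by their labels. The authors used cutadapt for trimming and TopHat2 for alignment to mm9, dropped PCR duplicates, and took exon counts of unique reads from HOMER. The deposited values are these raw counts per gene, unnormalized, in 1 table per replicate. Tool versions and use of strand are not given in the sources used here. Tables were joined by symbol. Genes with a count above 0 in any library (20044) went into the test, made with edgeR 4.0.16 (R 4.3.3), using TMM normalization, the quasi-likelihood test and Benjamini-Hochberg adjustment over all genes tested, with a threshold of 0.01. DESeq2 1.42.0 was an alternative. SEs come from the test statistic, and single-table ratios use a prior count of 2. Counting error, and replicates of 1 clone, limit precision.

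Members and lists were chosen with earlier results of these data known. The genes named are any past the threshold, the 5 largest increases and decreases (only 4 members were lower), the 3 highest and lowest levels per length, and 16 members set by role; of each other list, the 2 largest differences were eligible. Nrf1, Gabpa, Yy1 and Ddit3, and the promoters printed, were chosen after their values were seen. Windows of 32 bases, taken from GENCODE M1 transcripts, and promoters, placed at the counted starts, were read from NCBIM37 (mm9). Exon overlaps are those of GENCODE M1 and not of the counted transcripts. Scripts were tested on simulated data. Alternatives were other tests, normalizations and filters, a replicate block, a threshold of 0.05, each library left out in turn, genes whose transcript is shared by the tables, and centring on length; leaving out Mrps36, or members with overlaps or repeats, was added after seeing the data. The ChIP-seq and Hi-C data were not used here.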

Additional observations from a re-analysis of the deposited data

How the results depend on the processing

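The number of members called stayed at 0 in all settings but 1. It was 1 (Mrpl21) without +dox replicate 2, so that leaving out each library in turn gave 0 to 1. The number of all genes called was 120 of 20044 and depended on the setting. It was 375 with DESeq2, 457 with edgeR's likelihood ratio test, 0 with deviances adjusted for small counts, 11 with filterByExpr, 573 at a threshold of 0.05, and 0 to 992 when each library was left out. It was 992 without +dox replicate 1, 877 without +dox replicate 2 and 0 without either −dox library. The labels do not say that a replicate number marks a shared culture or day, and deviations of same-numbered libraries had a correlation of 0.196. With the replicate number as a block 786 of 20044 genes and 0 members were called, and the members' median was 0.18. The block called 4 of 10 ES cell markers (Pou5f1, Zfp42, Utf1 and Sall4), 12 of 20 fibroblast markers and 0 genes of the other lists. Beside 786 of 20044, a count of 0 among the members or in a short list is not a result about those genes. The members' median stayed above 0 in every setting run, from 0.13 to 0.23 when each library was left out, 0.14 with total counts and 0.08 when centred on genes of like length.

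Among the members named, signs turned in 11 genes with log2 fold changes between −0.09 and 0.15. With total counts Mrpl3 was −0.0051 and Mrps22 −0.029. When each library was left out, Mrpl13 ranged from −0.15 to 0.095, Mrpl16 from −0.032 to 0.15, Mrpl23 from −0.0017 to 0.21, Mrpl27 from −0.18 to 0.33, Mrpl41 from −0.0012 to 0.16 and Mrpl50 from −0.15 to 0.047. Mrpl57 ranged from −0.22 to 0.048, Mrps12 from −0.041 to 0.32, Mrps18a from −0.031 to 0.16 and Mrps22 from −0.032 to 0.057. The turned signs came without +dox replicate 1 (Mrpl13, Mrpl50), +dox replicate 2 (Mrpl27, Mrps12, Mrps22), −dox replicate 1 (Mrpl23, Mrpl41, Mrps22) or −dox replicate 2 (Mrpl13, Mrpl16, Mrpl57, Mrps18a). The cause was not tested. Where 1 library was left out, the lone library of its group was taken to vary like the other group. The depth of 36 to 80 reads a library limits Mrpl23 and Mrps33.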
